A study of Bos taurus with 6 samples.

Results

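The genes of the cyclin-dependent kinase (CDK) inhibitors were followed in primary cells of the rumen epithelium (REPC) with and without butyrate. The members were the rows of the gene tables named *CDKN1A*, *CDKN1B*, *CDKN1C*, *CDKN2A*, *CDKN2B*, *CDKN2C*, *CDKN2D* and *CDKN3*, which are 8 of the 32183 genes listed, each on a single row. The cells were isolated from the rumen of a 2-week-old Holstein bull calf that had received milk replacer only, so that all 6 cultures shared a donor. In the butyrate group, 3 cultures received 5 mM butyrate in the medium for 24 h, and the control group was 3 cultures labelled control. Expression was given as FPKM, a fragment count that the authors divided by transcript length and library size. FPKM is per length, so levels of different genes can be set side by side. P values measure the spread between these cultures and not between animals.

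CDK inhibitors are small proteins that hold back the kinases driving the cell cycle. The CIP/KIP inhibitors p21 (*CDKN1A*), p27 (*CDKN1B*) and p57 (*CDKN1C*) bind whole cyclin-CDK complexes, above all those of CDK2, whereas the INK4 inhibitors p16 (*CDKN2A*), p15 (*CDKN2B*), p18 (*CDKN2C*) and p19 (*CDKN2D*) bind only CDK4 and CDK6 and keep D-type cyclins away from them. *CDKN3* carries the family name but encodes a phosphatase that removes the activating phosphate from CDK2. Butyrate, a fermentation product of the rumen, inhibits histone deacetylases, and *CDKN1A* is a well-known gene induced by such inhibitors.

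Of the 8 genes, 5 rose after butyrate (*CDKN1A*, *CDKN1C*, *CDKN2A*, *CDKN2B* and *CDKN2D*) and 3 fell (*CDKN1B*, *CDKN2C* and *CDKN3*). These calls come from limma over the 15813 genes whose mean FPKM reached 0.1 or more, a filter that all 8 members passed, at a Benjamini-Hochberg adjusted p under 0.05. Butyrate changed much of the transcriptome, and among all tested genes 32.5% were called higher and 25.9% lower. Each family held genes of both directions, with 2 rises and 1 fall in CIP/KIP and 3 rises and 1 fall in INK4. In all 8 genes the 3 butyrate values lay entirely above or below the 3 control values, which held for 65.0% of the tested genes. The fall of *CDKN1B* was ended by several alternatives. A Bonferroni adjustment in place of Benjamini-Hochberg left 4 rises and 2 falls, without *CDKN2A* (Bonferroni-adjusted p = 0.0574 in limma) and *CDKN1B*. *CDKN1A* and *CDKN2D* passed it narrowly (0.0493 and 0.0373 in limma) and not with a pseudocount of 0.01 (0.0734 and 0.0575 in limma). Both also failed it without the filter (0.208 and 0.144 in limma) and without the trend of variance with expression. The same held with the replicate number as a block (0.606 and 0.463 in limma) and with any culture left out. Both passed it under the other alternatives to the fit. *CDKN2A* did pass it after rescaling to TPM (0.0112 in limma). The study's stricter cut-offs for a differentially expressed gene (DEG) were a Bonferroni-corrected p under 0.05 with a log2 fold change beyond 2. The study tested with Cufflinks, whereas here the cut-offs were applied to the limma results, so DEG calls below are not the study's own. These cut-offs were met by 2 of the 8, *CDKN1C* upwards and *CDKN3* downwards. The shares of all tested genes were 2.46% for DEGs that were higher and 1.51% for DEGs that were lower. In a bulk culture, a change in the share of cells that hold a transcript and a change in its amount per cell cannot be told apart.

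**Figure D1:**
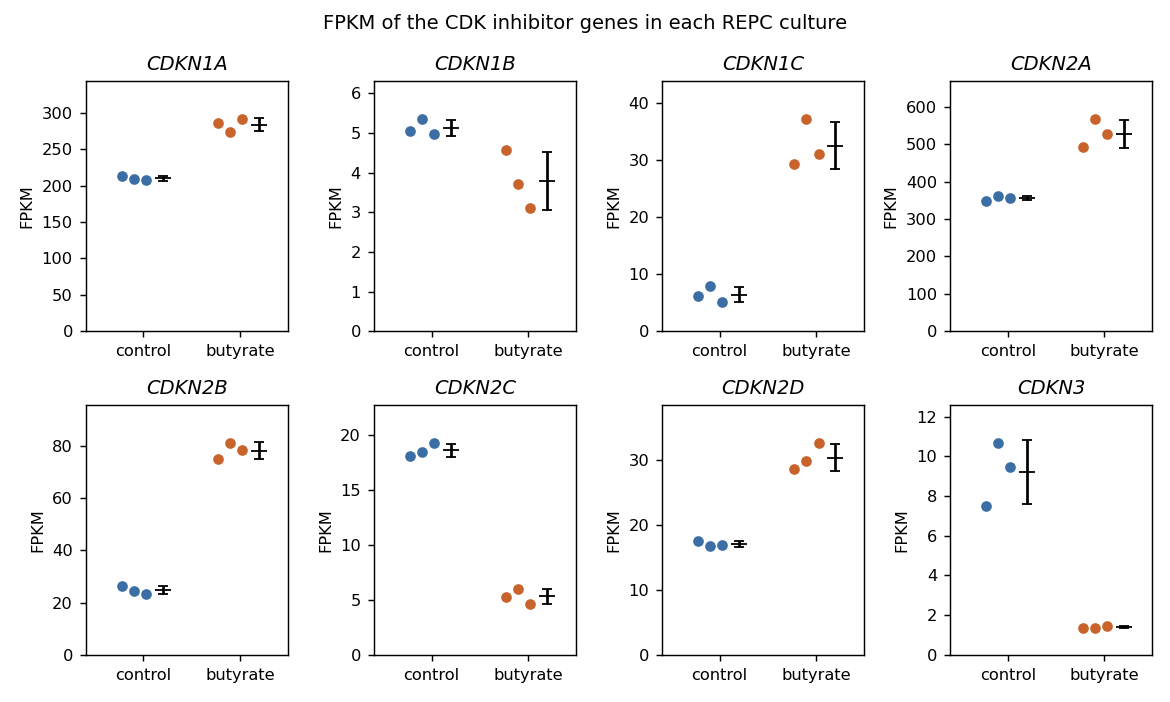
Each panel plots the FPKM of a CDK inhibitor gene in the 3 control (blue) and the 3 butyrate (orange) cultures, on an axis that starts at 0, with the mean and SD in black. *CDKN1B* has the smallest gap between the groups, and *CDKN1C*, *CDKN2B*, *CDKN2C* and *CDKN3* have the widest in proportion to their level.

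Among the CIP/KIP genes, *CDKN1A* on chromosome 23 (10551735 to 10568782, UMD3.1) was the most abundant in both groups. It encodes p21, an inhibitor induced by many stress and differentiation signals. Its FPKM in replicates 1 to 3 was 213, 208 and 208 in control and 286, 274 and 291 after butyrate. The lowest butyrate culture was well above the highest control. The mean rose from 210 ± 2.93 (SD, n = 3) to 284 ± 8.78 (SD, n = 3), a ratio of 1.35. Its log2 fold change came to 0.43 (SE 0.04, the standard error, adjusted p = 2.45e-05 in limma), and 64.5% of the tested genes had a lower log2 fold change. *CDKN1A* was thus a highly expressed gene with a small change, in which the spread between cultures was smaller still. It ranked 609 by mean FPKM among all listed genes in control and 400 after butyrate.

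*CDKN1B* on chromosome 5 (97577139 to 97582322) encodes p27, an inhibitor controlled largely through its degradation. Its FPKM was 5.04, 5.35 and 4.98 in the control cultures and 4.57, 3.72 and 3.105 in the butyrate cultures. All butyrate values were lower, but those of butyrate replicate 1 and control replicate 3 differed by little, and the confidence bounds that Cufflinks gave them, 3.61 to 5.53 and 4.04 to 5.91, overlapped. On the log2 scale the change was -0.44 (SE 0.16, adjusted p = 0.0419 in limma). This call depended on the processing and was lost in 9 of 14 alternatives, among them rescaling to TPM (log2 fold change -0.32, adjusted p = 0.129 in limma). It was also lost when control replicate 1, 2 or 3 or butyrate replicate 2 or 3 was left out, with adjusted p values from limma between 0.0760 and 0.128. The direction was the same in all 14.

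*CDKN1C*, a short gene on chromosome 29 (49368787 to 49370793), encodes p57, which is imprinted in mammals and marks cells leaving the cycle during development. Its FPKM was 6.16, 7.85 and 5.18 in control and 29.3, 37.2 and 31.1 after butyrate. The butyrate cultures stood far above the controls, and the lowest confidence bound after butyrate, 22.6, exceeded the highest in control, 11.6. The means of 6.40 ± 1.35 (SD, n = 3) and 32.5 ± 4.14 (SD, n = 3) differed 5.09-fold and the log2 fold change was 2.34 (SE 0.16, adjusted p = 3.60e-06 in limma). This was the largest rise of the 8 genes, above that of 94.5% of the tested genes. Its Bonferroni-adjusted p was 0.00373 in limma, and the DEG call was lost when control replicate 1 (0.0664) or butyrate replicate 1, 2 or 3 was left out (0.0715, 0.113 and 0.113), while the log2 fold change stayed at or above 2.20. It was also lost without the filter on low values (0.0815) and without the trend of variance with expression in limma (0.466).

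The INK4 genes *CDKN2A* and *CDKN2B* lie next to each other on chromosome 8, with a gap of 9.80 kb between them. *CDKN2A* (22129223 to 22154037) encodes p16 and, from another reading frame, ARF, a separate growth-restraining protein. The values are per gene, so transcripts of p16 and ARF could not be separated. Its FPKM was 349, 361 and 357 in control and 491, 567 and 526 after butyrate. The butyrate cultures were all higher and spread more widely, and the mean went from 356 ± 6.16 (SD, n = 3) to 528 ± 37.8 (SD, n = 3). *CDKN2A* had the highest level of the 8 genes in every culture. The log2 fold change was 0.57 (SE 0.05, adjusted p = 2.76e-05 in limma).

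*CDKN2B* (22114512 to 22119419) encodes p15, the INK4 inhibitor induced by TGF-beta. Its FPKM was 26.3, 24.6 and 23.4 in control and 74.8, 81.1 and 78.4 after butyrate. Both groups were tight, and the mean rose from 24.8 ± 1.48 (SD, n = 3) to 78.1 ± 3.17 (SD, n = 3), a ratio of 3.15. Its log2 fold change was 1.65 (SE 0.06, adjusted p = 2.05e-07 in limma), which is the smallest adjusted p of the 8 genes. It stayed below the DEG limit of 2.

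These neighbours did not move by the same amount. The ratio of *CDKN2A* to *CDKN2B* within a culture was 13.3, 14.7 and 15.3 in control and 6.57, 6.99 and 6.71 after butyrate. The groups did not overlap, and 3 cultures against 3 allow no exact permutation p below 0.1. *CDKN2B* made up 5.95% ± 0.409 (SD, n = 3) of the summed INK4 FPKM in control and 12.2% ± 0.303 (SD, n = 3) after butyrate.

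*CDKN2C* and *CDKN2D*, the INK4 genes outside this locus, moved in opposite directions. *CDKN2C* on chromosome 3 (95924171 to 95930141) encodes p18. Its FPKM was 18.1, 18.4 and 19.3 in control and 5.29, 6.02 and 4.67 after butyrate. The butyrate values were all below the lowest control, and the mean ratio was 0.286. Its log2 fold change came to -1.79 (SE 0.11, adjusted p = 2.22e-06 in limma). *CDKN2D* on chromosome 7 (16298102 to 16300588) encodes p19. Its FPKM was 17.6, 16.8 and 16.9 in control and 28.6, 29.8 and 32.6 after butyrate, a ratio of 1.78. On the log2 scale the change was 0.82 (SE 0.07, adjusted p = 1.98e-05 in limma). Their levels were nearly equal in control, where the ratio of *CDKN2D* to *CDKN2C* was 0.968, 0.911 and 0.875. After butyrate it was 5.41, 4.95 and 6.98, so that *CDKN2D* was the more abundant in each treated culture.

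*CDKN3* on chromosome 10 (67155024 to 67173124), the phosphatase, had the largest fall. Its FPKM was 7.51, 10.7 and 9.47 in control and 1.36, 1.38 and 1.46 after butyrate. The controls varied among themselves while the treated cultures were nearly alike, and the highest treated confidence bound, 2.31, was below the lowest control bound, 5.97. The log2 fold change was -2.62 (SE 0.16, adjusted p = 2.32e-06 in limma), and only 1.47% of the tested genes had a lower value. Its DEG call had a Bonferroni-adjusted p of 0.00206 in limma and was lost without butyrate replicate 2 (0.0599) and without the variance trend (0.0687). An unnamed locus overlaps *CDKN3*, but its FPKM was at most 0.0886 in any culture. *CDKN3* was the lowest of the 8 genes in every butyrate culture, where its lower confidence bounds were 0.545, 0.564 and 0.622.

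**Figure D2:**
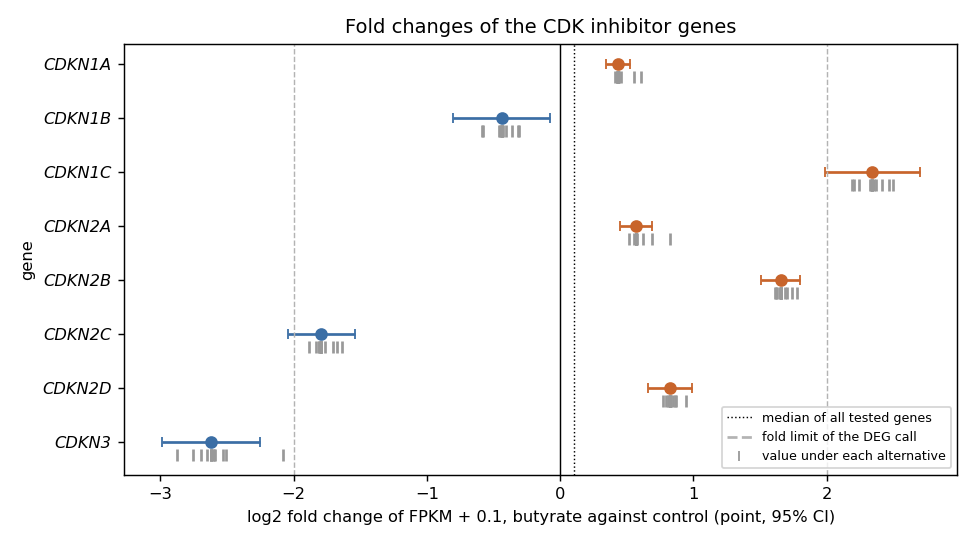
The horizontal axis is the log2 fold change of FPKM + 0.1 between butyrate and control, with a row for each gene; points are limma estimates with 95% confidence intervals (orange higher, blue lower), and grey ticks are the values under the 14 alternatives. The ticks of each gene stay on the side of 0 where its estimate lies, *CDKN1C* and *CDKN3* lie beyond the fold limit of 2, and the interval of *CDKN1B* comes closest to 0.

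Setting the levels in order showed a reshuffling below the most abundant pair. In control, the mean FPKM was highest for *CDKN2A*, followed by *CDKN1A*, *CDKN2B*, *CDKN2C*, *CDKN2D*, *CDKN3*, *CDKN1C* and *CDKN1B*. The culture values of *CDKN3* and *CDKN1C* overlapped in control, as did those of *CDKN1C* and *CDKN1B*, so the order of these neighbours is not resolved. After butyrate, *CDKN2A*, *CDKN1A* and *CDKN2B* still led, and *CDKN1C* and *CDKN2D* followed with overlapping values. *CDKN2C*, *CDKN1B* and *CDKN3* came last. *CDKN1C* moved from rank 7542 to rank 3031 among all listed genes, and *CDKN2B* from 3801 to 1430. *CDKN2C* moved the other way, from 4551 to 8179, and *CDKN3* from 6520 to 11506.

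Summed over its members, each family was higher after butyrate. The CIP/KIP sum was 224, 222 and 218 FPKM in control and 319, 315 and 325 after butyrate. The INK4 sum was 411, 421 and 417 in control and 600, 684 and 642 after butyrate. CIP/KIP made up 34.7% ± 0.520 (SD, n = 3) of the 7-gene sum in control and 33.3% ± 1.63 (SD, n = 3) after butyrate, and the groups overlapped. The difference of -1.42 percentage points was thus within the spread between cultures, but it rests on *CDKN1A* and *CDKN2A*, which dominate the sums. With *CDKN1A* left out of the sums the direction turned, and the CIP/KIP share was 2.66 percentage points higher after butyrate. Within CIP/KIP, *CDKN1A* made up 94.8% ± 0.674 (SD, n = 3) in control and 88.6% ± 1.41 (SD, n = 3) after butyrate. The share of *CDKN1C* went from 2.89% ± 0.597 (SD, n = 3) to 10.2% ± 1.43 (SD, n = 3). The *CDKN1C* to *CDKN1B* ratio was 1.22, 1.47 and 1.04 in control and 6.42, 10.0 and 10.0 after butyrate. Within INK4, *CDKN2A* made up 85.5% ± 0.486 (SD, n = 3) and then 82.2% ± 0.563 (SD, n = 3), while *CDKN2C* went from 4.48% ± 0.137 (SD, n = 3) to 0.830% ± 0.0884 (SD, n = 3).

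**Figure D3:**
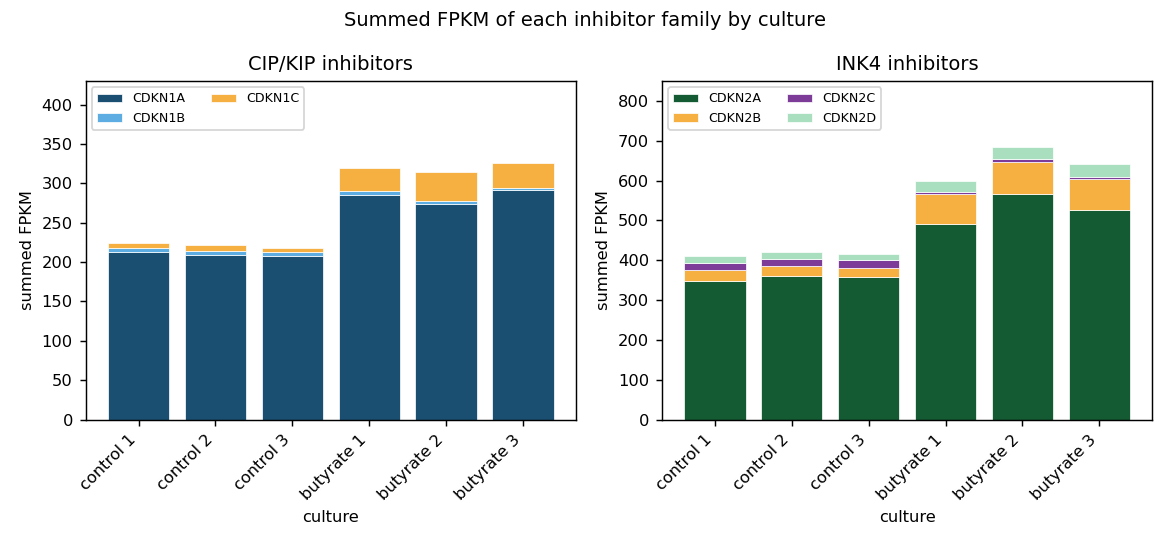
Stacked bars give the summed FPKM of the CIP/KIP genes (left) and the INK4 genes (right) in each of the 6 cultures, with a colour for each gene and an axis that starts at 0. *CDKN1A* and *CDKN2A* fill most of each bar, and the *CDKN1C* and *CDKN2B* bands are thicker in the butyrate cultures.

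The kinases that these proteins inhibit fell or did not pass the test. Of CDK1, CDK2, CDK4 and CDK6, 3 were lower and 0 higher, with a median log2 fold change of -0.77 beside 0.10 over all tested genes. Counts in this and the following lists stand beside 32.5% of all tested genes called higher and 25.9% called lower. *CDK1*, the mitotic kinase, went from 32.5 ± 1.39 (SD, n = 3) to 2.62 ± 0.708 (SD, n = 3) FPKM. *CDK2* fell from 14.1 ± 0.587 (SD, n = 3) to 7.43 ± 0.750 (SD, n = 3), and *CDK4* from 84.8 ± 1.29 (SD, n = 3) to 55.2 ± 2.45 (SD, n = 3). *CDK6* was at 30.4 ± 2.65 (SD, n = 3) and 33.8 ± 7.32 (SD, n = 3), a difference within the spread (limma, adjusted p = 0.477). Inhibitor transcripts were also set against those of their kinases. The *CDKN1A* to *CDK2* ratio was 15.9, 14.6 and 14.3 in control and 37.8, 33.8 and 43.9 after butyrate. The INK4 sum divided by the sum of *CDK4* and *CDK6* was 3.60, 3.74 and 3.50 in control and 6.31, 7.38 and 8.10 after butyrate. Both ratios were higher in every treated culture, and the INK4 sum is mostly *CDKN2A*. *CDKN2C* taken by itself went the other way, its ratio to the same kinases being 0.159, 0.164 and 0.162 in control and 0.0557, 0.0650 and 0.0590 after butyrate. These are transcript ratios per length, and protein was not measured.

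**Figure D4:**
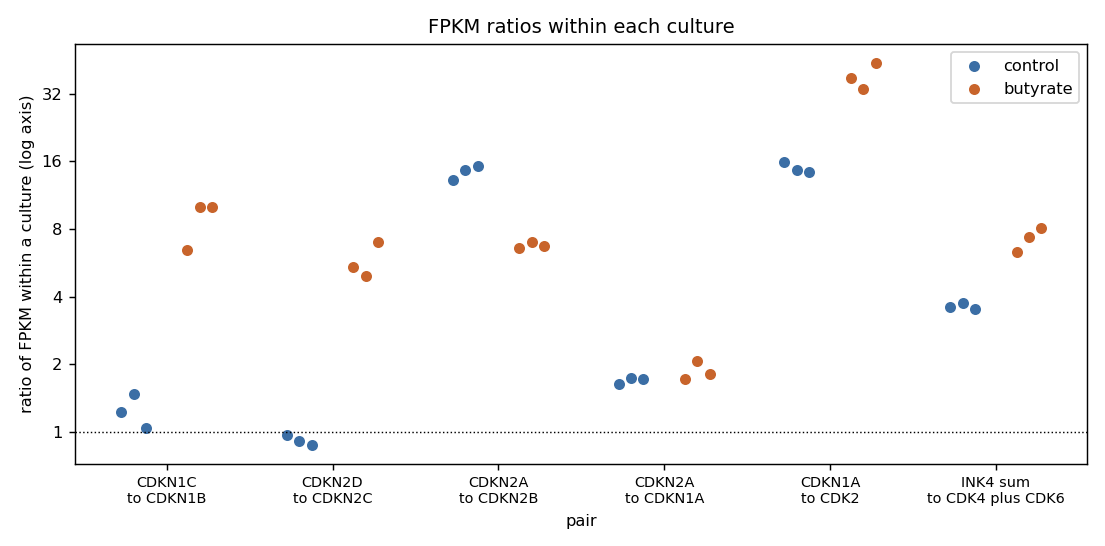
Ratios of FPKM within each culture are shown on a log axis for 6 pairs, control in blue and butyrate in orange, with a dotted line where both genes are equal. The groups overlap only for *CDKN2A* to *CDKN1A*; *CDKN2A* to *CDKN2B* is lower after butyrate, and the other 4 ratios are higher.

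Of the 8 cyclins that partner these kinases, 6 were lower and 1 higher, with a median log2 fold change of -1.10. The D-type cyclins are the partners that INK4 proteins displace. *CCND1* fell from 775 ± 5.81 (SD, n = 3) to 316 ± 8.48 (SD, n = 3) FPKM and *CCND2* from 605 ± 13.1 (SD, n = 3) to 417 ± 14.0 (SD, n = 3). *CCND3* was at 55.4 ± 0.825 (SD, n = 3) and 56.5 ± 3.20 (SD, n = 3) and did not pass (limma, adjusted p = 0.731), except narrowly as higher after rescaling to TPM (limma, adjusted p = 0.04996). The E-type cyclins, partners of CDK2, split, with log2 fold changes of 0.43 for *CCNE1* and -0.90 for *CCNE2* (limma, adjusted p = 0.0258 and 0.000644). The RB pocket proteins are the substrates through which these kinases release E2F factors. Of *RB1*, *RBL1* and *RBL2*, only *RBL1* passed, falling from 4.52 ± 0.485 (SD, n = 3) to 2.75 ± 0.217 (SD, n = 3), whereas *RB1* was at 2.15 ± 0.228 (SD, n = 3) and 2.37 ± 0.179 (SD, n = 3). *RBL2* had a log2 fold change of 0.18 and did not pass (limma, adjusted p = 0.161), but it did after rescaling to TPM (limma, adjusted p = 0.0305).

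Other regulators of CDK activity were lower in both directions of action. Of 6 activators, 4 were lower and 0 higher, among them the phosphatase genes *CDC25B* (log2 fold change -2.63) and *CDC25A* (-1.66), which remove inhibitory phosphates. Both inhibitory kinases fell as well, with log2 fold changes of -0.96 for *WEE1* and -1.73 for *PKMYT1*.

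Genes of inhibitor degradation were mostly lower. Of 13 tested genes, 9 were lower and 1 higher, with a median log2 fold change of -0.53. *SKP2* and *CKS1B* form the part of the ubiquitin ligase that recognises p27. *SKP2* fell from 4.54 ± 0.382 (SD, n = 3) to 2.52 ± 0.246 (SD, n = 3) FPKM, and *CKS1B* from 141 ± 6.28 (SD, n = 3) to 13.8 ± 1.64 (SD, n = 3). *SKP1*, the adaptor shared by many ligases, was the gene that rose, with a log2 fold change of 0.49. *CDC20* and *DTL*, which direct p21 to degradation, had log2 fold changes of -5.89 and -3.56, but *CDC20* also acts in mitosis and *DTL* in replication control.

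The 15 regulators of *CDKN1A* transcription given here did not share a direction, with 8 higher and 2 lower, beside 32.5% and 25.9% of all tested genes. Their median log2 fold change was 0.25. *MYC*, a repressor of *CDKN1A* and *CDKN2B*, fell from 95.3 ± 5.16 (SD, n = 3) to 58.8 ± 9.52 (SD, n = 3). *MDM2*, a ubiquitin ligase, had a log2 fold change of -0.28 (limma, adjusted p = 0.00866), a call that TPM rescaling ended (limma, adjusted p = 0.0859). The factors of the GC box motif, through which deacetylase inhibitors are known to act on *CDKN1A*, differed. *SP1* was at 3.19 ± 0.804 (SD, n = 3) and 3.18 ± 0.879 (SD, n = 3) and *SP3* rose from 13.8 ± 0.921 (SD, n = 3) to 19.5 ± 1.15 (SD, n = 3). *KLF4* and *KLF6* rose, with log2 fold changes of 0.82 and 0.48.

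Of 12 regulators of the INK4 locus, 4 were higher and 3 lower, shares close to the 32.5% and 25.9% of all tested genes. *EZH2*, the Polycomb methyltransferase, fell from 18.2 ± 1.33 (SD, n = 3) to 7.54 ± 0.736 (SD, n = 3) FPKM. *BMI1*, a Polycomb subunit known for repressing *CDKN2A*, rose from 7.91 ± 0.304 (SD, n = 3) to 10.8 ± 0.156 (SD, n = 3). The falls of *SUZ12* and *ETS1* were lost after rescaling to TPM (limma, adjusted p = 0.0685 and 0.216), and that of *ETS1* also with quantile normalization (limma, adjusted p = 0.120).

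**Figure D5:**
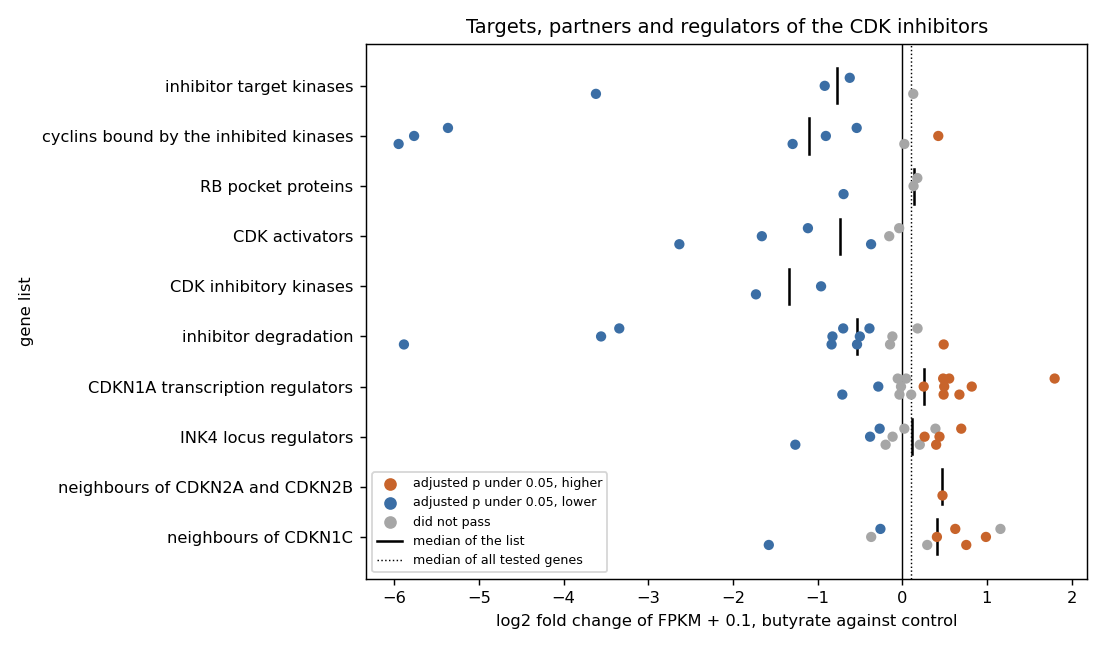
The horizontal axis is the log2 fold change of FPKM + 0.1 between butyrate and control, with a row for each gene list; each point is a gene, orange or blue where it passed the test as higher or lower and grey where it did not, and the black bar is the list median. The kinases, cyclins, activators, inhibitory kinases and degradation genes have medians below 0, while the transcription regulators scatter on both sides.

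Genes near the inhibitors were read for comparison. *MTAP*, 68.6 kb from *CDKN2A*, rose from 57.1 ± 5.82 (SD, n = 3) to 78.8 ± 5.49 (SD, n = 3) FPKM. *DMRTA1* and *ELAVL2*, listed genes farther from *CDKN2A* at 361 and 1674 kb, were too low to be tested, with highest values of 0.166 and 0.112. On chromosome 29, 9 listed genes at 14.4 to 780 kb from *CDKN1C* were tested. Of these, 4 were higher and 2 lower, beside 32.5% and 25.9% of all tested genes. Their median log2 fold change was 0.41. The fall of *NAP1L4* among them was lost after TPM rescaling and quantile normalization (limma, adjusted p = 0.118 and 0.206). *SLC22A18*, 14.4 kb away, rose from 5.26 ± 0.503 (SD, n = 3) to 9.00 ± 1.50 (SD, n = 3). *KCNQ1* at 30.0 kb and *PHLDA2* at 38.2 kb did not pass (limma, adjusted p = 0.246 and 0.142). The estimates of all 9 were below that of *CDKN1C*, the highest being that of *KCNQ1* at 1.16 (SE 0.80). *H19* and *IGF2*, an imprinted pair farther away at 780 and 667 kb, had log2 fold changes of -1.58 and 0.99.

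The 3 genes with the most similar profile to a member over the 6 cultures were taken from named genes whose mean FPKM reached 1, by the Euclidean distance between centred log2 values. *CDKN1A* was closest to *RSU1*, *JUNB* and *PEA15* (distances of 0.0444, 0.0549 and 0.0590). *CDKN2A* was closest to *EMD*, and *CDKN2B* to *ESRP1* (0.0528 and 0.0773). *CDKN1C* was closest to *CXCL3* and the keratin gene *KRT15* (0.277 and 0.326), *CDKN2C* to *USP13* (0.139) and *CDKN1B* to *SART1* (0.152). *CDKN3* was closest to *HMGB2* (0.286), and the mitotic kinesin gene *KIFC1* was among its 3 (0.366). With 6 cultures in 2 groups, this distance is small wherever the fold change is alike.

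Markers of more than epithelial cells were present in the cultures. All 10 epithelial markers reached a mean FPKM of 0.1 or more, and their sum was between 2609 and 2710 in control and between 5228 and 5318 after butyrate, but *EPCAM* was at only 0.540 ± 0.174 (SD, n = 3) in control. Of these 10, 7 were called higher, led in the sum by *KRT8*, *KRT14* and *KRT19*, while *CDH1* and *ITGA6* did not pass and *KRT5* was called lower, with a log2 fold change of -0.17 that was 0.06 after quantile normalization. Of 8 fibroblast markers, 7 reached 0.1, with sums of 1924 to 1982 and 2789 to 3038. All 5 smooth muscle markers reached 0.1 over the 6 cultures, and their sum was 6468 to 6796 in control and 2849 to 3456 after butyrate. That sum was almost all *ACTA2*, *CNN1* and *TAGLN*. Of the 5, 4 were called lower, while *DES* was called higher (log2 fold change 2.07, adjusted p = 0.00740 in limma). *DES* and *MYH11* were low, with mean FPKM of 0.367 and 0.662 in control, and *MYH11* was at 0.0762 after butyrate. Of 4 endothelial markers 2 reached that level, with sums of 1.95 to 2.07 and 6.48 to 8.43, and *CDH5* was at 0 in all cultures. Of 5 immune markers 2 did, with sums of 5.12 to 7.15 and 7.23 to 9.38, and *PTPRC* and *LYZ* were at 0. The sums of all 5 marker lists did not overlap between the groups, and neither did the values of 65.0% of the tested genes. For the immune list the gap was narrow, with a highest control sum of 7.15 and a lowest butyrate sum of 7.23. Most of the immune sum was *CD14*, which did not pass and had overlapping values (6.65 in control replicate 2, 5.97 in butyrate replicate 2). The part of these markers in the values of the CDK inhibitors was not tested. Summed over all genes, FPKM came to 678035 to 681912 in the controls and to 619401 to 629037 in the treated cultures. Rescaling to TPM moved the median log2 fold change of all tested genes from 0.10 to 0.24, and quantile normalization moved it to -0.05. Relative to that median, *CDKN1A* rose by 0.33 on the FPKM scale, by 0.32 after TPM and by 0.65 after quantile normalization, and *CDKN2A* by 0.46, 0.45 and 0.87 on the log2 scale. No member changed direction under either scaling.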

How the data were processed

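RNA of 6 REPC cultures was sequenced, 3 per group as the labels give them. The authors trimmed reads with Trim Galore 0.4.1, aligned them with STAR, kept uniquely mapped reads and deposited FPKM per gene from Cufflinks with its confidence bounds. The build is UMD3.1 per the submitters' notes. The tables hold no counts, and the study's read totals were not used here, so only the bounds carry the counting error of a value. Whether reads were assigned by strand is not given in the sources used here. Chromosome numbers were taken by symbol from RefSeq's table of ARS-UCD2.0 genes (98.6% of 22786 matched genes lay on the chromosome of most genes of their sequence), and all positions are those of the files.

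Rows were joined by identifier, name and position. Failed estimates removed 2 genes. log2(FPKM + 0.1), which understates changes of low genes, was fitted with limma 3.58.1 (R 4.3.3, trended prior variance) where the mean FPKM reached 0.1, without a block, since the study states no pairing. P values were adjusted over all 15813 tested genes. The fit was tested on simulated data. Alternatives were pseudocounts of 0.01 and 1, a mean FPKM of at least 1, no filter, no trend, TPM, quantile normalization, the replicate number as a block, Bonferroni adjustment and each culture left out. Lists were read by counts and medians, a name on several rows at its highest mean. Named were all members, fixed genes of the lists or else the 2 with the largest change in a list, and genes most like each member. *SKP1*, *SUZ12*, *ETS1*, *IGF2*, *NAP1L4*, *CDKN2AIP*, *CD14* and the epithelial and smooth muscle markers were named after their values were seen. The members and lists were chosen with earlier results of these data known. Some genes of the lists and of the likeness ranking are not reported here.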

Additional observations from a re-analysis of the deposited data

How the results depend on the processing

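Among the 14 alternatives run for each gene, *CDKN1A*, *CDKN1C*, *CDKN2A*, *CDKN2B*, *CDKN2C*, *CDKN2D* and *CDKN3* kept their direction and passed at a Benjamini-Hochberg adjusted p under 0.05 in limma in each. Bonferroni adjustment, which is not among the 14, ended the calls of *CDKN2A* and *CDKN1B*. *CDKN1B* stayed lower but no longer passed without a filter (-0.44), without the trend (-0.44), after TPM rescaling (-0.32) and with the replicate block (-0.44), and it ranged from -0.58 to -0.31 with a culture left out. The count of 2 DEGs became 1 without a filter, 0 without the trend and 4 at a fold limit of 1 on the log2 scale. It lay between 0 and 2 with a culture left out. The share of CIP/KIP in the 7-gene sum, 1.42 percentage points lower after butyrate (-1.42), reversed to 2.66 without *CDKN1A* and ranged from -2.14 to -0.53 with a culture left out. The replicate block (adjusted p = 0.0519 for *CDKN1B* in limma) ended that call and no other of the 8. Same-numbered cultures correlated at 0.0228, -0.00431 and 0.00177 across genes in their deviations, and differently numbered ones at -0.0181 to 0.0163. These values pool all genes with a mean FPKM of 0.1 or more, low ones included. They therefore cannot settle whether the numbers pair the cultures. With 3 cultures a group and no counts, small changes in genes of low FPKM such as *CDKN1B* are the least certain. The cause of each change with the processing was otherwise not tested.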

Other observations

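*CDKN2AIP* and *CDKN2AIPNL*, which share part of their name with *CDKN2A* but are not CDK inhibitors, were looked at after the values of the members. *CDKN2AIP* encodes a protein that binds ARF. Its FPKM was 7.74, 9.51 and 8.59 in control and 12.1, 13.0 and 11.3 after butyrate, a log2 fold change of 0.49 (SE 0.11, adjusted p = 0.00407 in limma). All 3 butyrate values were above all 3 control values, and 65.0% of the tested genes had groups without overlap in either direction. *CDKN2AIPNL* had overlapping values, at 134 ± 10.4 (SD, n = 3) and 140 ± 13.4 (SD, n = 3) and a log2 fold change of 0.06 (limma, adjusted p = 0.574).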
